A study of Rattus norvegicus with 9 samples.

Results

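Potassium channel genes are described here in the injured and stimulated rat spinal cord. The members were the protein-coding rows of the deposited count table whose symbol begins with Kcn, which gave 90 genes of 30507 rows, of which 23257 are protein-coding. They comprised 38 voltage-gated (Kv) alpha subunits, 15 inward rectifiers (Kir), 14 two-pore-domain (K2P) channels, 8 calcium- or sodium-activated channels, written calcium-activated below, and 15 auxiliary subunits. No symbol was repeated, and 1 further row with a Kcn symbol had another gene type and was left out. The study asked what high-frequency spinal cord stimulation (SCS) does after spinal cord injury (SCI), and RNA was sequenced in 9 libraries from whole spinal cord tissue, 3 in each of 3 groups. All rats were wild-type female Sprague-Dawley animals, 8 weeks old, and the tissue was taken 35 days post-injury (dpi). The Sham group, which the labels call untreated, had the cord exposed at T10 without contusion. The SCI group received a 150 kdyn contusion at T10. The SCI + SCS group received the same contusion and epidural stimulation at 10 kHz, 0.12 mA and 30 µs pulses for 2 h per day from 1 dpi. SCI rats had a plug and no electrode, and an electrode without current was not analysed here, so the electrode and the current cannot be told apart in the SCI + SCS group. The labels number the 3 libraries of a group without stating that each came from its own animal, so p-values measure the spread between these libraries.

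Potassium channels let potassium leave or enter cells along its gradient and so set the resting potential and end each action potential. Kv channels open on depolarization and shape spikes in neurons and at the flanks of the nodes of Ranvier. Kir channels hold the resting potential, and in astrocytes and oligodendrocytes they take up the potassium that active axons release. K2P channels carry leak current, calcium-activated channels couple calcium entry to hyperpolarization, and auxiliary subunits alter trafficking and gating of the pores they join. In the spinal cord most of these genes are known from neurons or glia, and a few from immune cells, vessels and meninges.

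The stretches upstream of 5 members are given, chosen from both directions of change. Whether their letters bear on the direction was not tested. Kcnab2, Kcnd2 and Kcnj10 were lower after SCI and Kcnj2 and Kcnk13 were higher. Each line holds the 250 bases before the gene's start in RefSeq (GRCr8), 5′ to 3′ on the gene's strand, and capitals mark every GC box (GGGCGG on either strand). The windows were chr5:168270761-168271010 on the minus strand for Kcnab2, chr4:50742235-50742484 on the plus strand for Kcnd2, chr13:87334260-87334509 on the plus strand for Kcnj10, chr10:96559975-96560224 on the plus strand for Kcnj2 and chr6:124971559-124971808 on the plus strand for Kcnk13.
Kcnab2: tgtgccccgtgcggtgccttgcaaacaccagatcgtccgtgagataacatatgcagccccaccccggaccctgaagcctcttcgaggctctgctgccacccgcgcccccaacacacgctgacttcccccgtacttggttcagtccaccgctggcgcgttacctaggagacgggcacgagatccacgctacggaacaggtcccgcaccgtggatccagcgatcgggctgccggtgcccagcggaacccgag
Kcnd2: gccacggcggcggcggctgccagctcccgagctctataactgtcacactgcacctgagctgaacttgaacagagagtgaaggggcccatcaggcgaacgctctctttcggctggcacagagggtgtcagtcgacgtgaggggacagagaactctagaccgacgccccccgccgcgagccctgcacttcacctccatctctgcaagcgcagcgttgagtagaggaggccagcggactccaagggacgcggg
Kcnj10: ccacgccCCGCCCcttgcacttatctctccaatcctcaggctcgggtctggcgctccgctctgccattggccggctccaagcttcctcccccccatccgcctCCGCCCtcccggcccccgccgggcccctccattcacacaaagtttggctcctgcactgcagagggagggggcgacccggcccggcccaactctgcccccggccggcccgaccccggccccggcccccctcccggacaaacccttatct
Kcnj2: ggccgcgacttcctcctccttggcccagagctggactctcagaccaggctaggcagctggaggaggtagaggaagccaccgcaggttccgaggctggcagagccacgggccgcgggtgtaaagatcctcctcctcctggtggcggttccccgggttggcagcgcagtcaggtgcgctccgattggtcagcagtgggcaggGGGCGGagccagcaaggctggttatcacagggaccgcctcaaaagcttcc
Kcnk13: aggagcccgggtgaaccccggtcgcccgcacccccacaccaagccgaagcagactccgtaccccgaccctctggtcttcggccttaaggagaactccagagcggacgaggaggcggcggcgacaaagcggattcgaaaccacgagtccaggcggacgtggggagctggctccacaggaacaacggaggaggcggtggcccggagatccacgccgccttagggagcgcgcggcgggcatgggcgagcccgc

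Of the 90 members, 62 had an entry in the promoter table by symbol. The GC box, a site known for Sp1-type factors, was present in 29 of these 62 windows (46.8%) and in 32.4% of the 27457 promoters of the same length. It occurred in 16 of the 32 windows of members that were lower in the SCI group, in 2 of the 4 of members that were higher and in 9 of the 19 of members without a call. The cyclic AMP response element (TGACGTCA) was found in 0 of 62 members' windows and in 1.70% of all promoters. The AP-1 site (TGANTCA) was found in 2 windows (3.23%), against 6.36% of all promoters. The left part of the RE1 element (CAGCACC), known for the neuronal repressor REST, was found in 4 windows (6.45%), against 5.51%. Each motif was searched on both strands, and the 4 motifs do not overlap in their letters. The median GC content of the members' windows was 60.8%, against 52.0% over all promoters. All members are protein-coding, while the promoters they were set against were not filtered by gene type. The part of GC content or gene type in the GC box shares was not tested. A match describes letters and not a bound site, and none of the printed windows held the last 3 motifs.

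The libraries held 62844376 to 88358570 counts. Potassium channel genes took 0.218 to 0.305% of the counts in the Sham libraries, 0.0958 to 0.116% in the SCI libraries and 0.133 to 0.171% in the SCI + SCS libraries, and these ranges did not overlap. FPKM, the authors' unit of fragments scaled for gene length and library size, were used to compare genes with one another. The FPKM values of all members summed to 482 ± 84.6 in Sham, 209 ± 9.59 in SCI and 298 ± 36.6 in SCI + SCS cords (mean ± SD, n = 3 in each). The difference was uneven between subfamilies. Kv genes summed to 205 ± 45.5, 64.6 ± 10.9 and 108 ± 16.9 FPKM in the 3 groups, Kir genes to 134 ± 8.05, 58.8 ± 2.51 and 85.0 ± 14.8, and auxiliary genes to 92.3 ± 26.0, 32.9 ± 3.60 and 54.1 ± 8.94. K2P genes summed to 34.8 ± 3.52, 35.4 ± 5.49 and 34.3 ± 3.08 FPKM and calcium-activated genes to 16.4 ± 3.11, 17.5 ± 2.72 and 16.7 ± 2.21, so the library ranges of these last 2 subfamilies overlapped between all groups. Without Kcnn4, the other 7 calcium-activated genes summed to 15.6 ± 3.21, 7.31 ± 0.61 and 10.3 ± 1.09 FPKM. The K2P share of the summed FPKM was therefore 7.29 ± 0.73% in the Sham group and 17.0 ± 3.25% in the SCI group. With 3 libraries against 3, an exact two-sided permutation test of such sums cannot give a p below 0.1, and none was run.

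**Figure D1:**
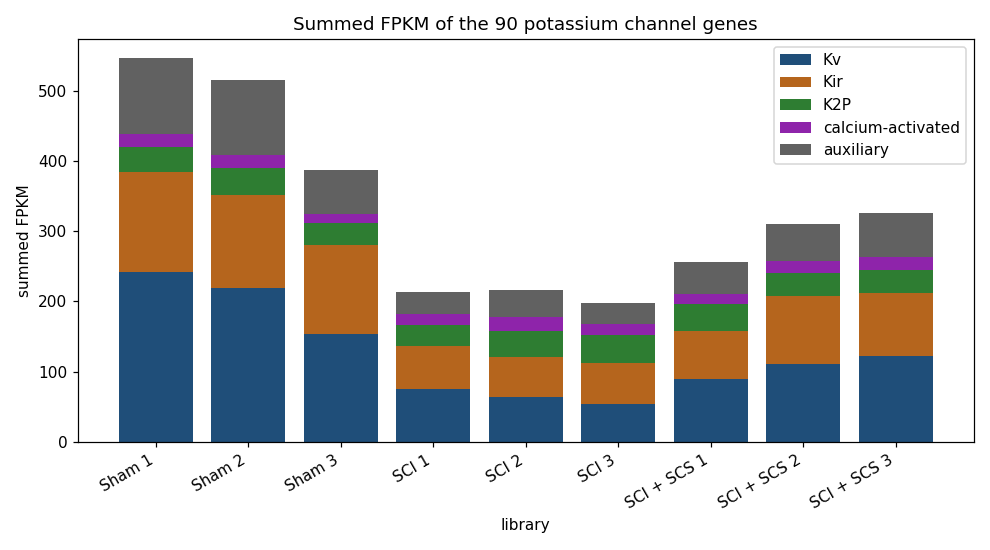
Summed FPKM of the 90 potassium channel genes in each of the 9 libraries, stacked by subfamily. The Sham bars are the tallest and the SCI bars the shortest, while the K2P and calcium-activated segments are of similar height in every library, the latter with Kcnn4 included.

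The most abundant members changed order between groups. Kcnj10, the Kir4.1 channel of astrocytes and oligodendrocytes, led in every group, with 77.3 ± 0.20 FPKM in Sham, 20.4 ± 3.61 in SCI and 36.7 ± 6.45 in SCI + SCS cords. In the Sham group, Kcna1 (30.5 ± 7.01 FPKM), Kcna6 (25.5 ± 0.89) and Kcnab2 (19.8 ± 9.72) were also among the 5 highest. In the SCI group the next were Kcnk1 (12.9 ± 1.04 FPKM), Kcnn4 (10.2 ± 3.27), Kcna6 (9.89 ± 1.81) and Kcna1 (9.86 ± 1.23), which lay within each other's spread except that Kcnk1 was above Kcna1 and Kcna6 by more than 1 SD. Kcnn4 thus stood at rank 3 of 90 in the SCI group, at rank 56 in the Sham group (0.892 ± 0.25 FPKM) and at rank 16 in the SCI + SCS group (6.35 ± 1.13). In the SCI + SCS group, Kcnj16 (15.0 ± 6.02 FPKM), Kcna6 (14.7 ± 1.83) and Kcnk1 (14.6 ± 1.61) were among the 5 highest and were within each other's spread.

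The first comparison asked what the contusion changed. Potassium channel genes were mostly lower after SCI. Of the 82 members tested, 48 were lower, 6 were higher and 28 had no call at an adjusted p under 0.05 (edgeR quasi-likelihood test, Benjamini-Hochberg adjustment over all 17822 genes tested). The lower calls made up 58.5% of the members, against 25% of all genes tested, and the higher calls 7.32%, against 24.3%. With an absolute log2 fold change over 1 as well, 44 members were lower and 5 higher, where 13.6% and 13.4% of all genes were called. The median log2 fold change was -1.30 over the members and 0.02 over all genes. By subfamily, 24 of 35 Kv, 7 of 14 Kir, 4 of 13 K2P, 5 of 7 calcium-activated and 8 of 13 auxiliary genes were lower. The higher members were 0 Kv, 1 Kir, 3 K2P, 1 calcium-activated and 1 auxiliary gene. Of the Kv genes, 1 was higher at an unadjusted p under 0.05 and 2 had a log2 fold change above 0, and DESeq2 called 1, Kcna7. The counts over all members stayed between 42 and 57 lower and between 4 and 7 higher with any 1 library left out. Over all genes, 3238 to 4243 were lower and 2853 to 4120 higher in the same fits.

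**Figure D2:**
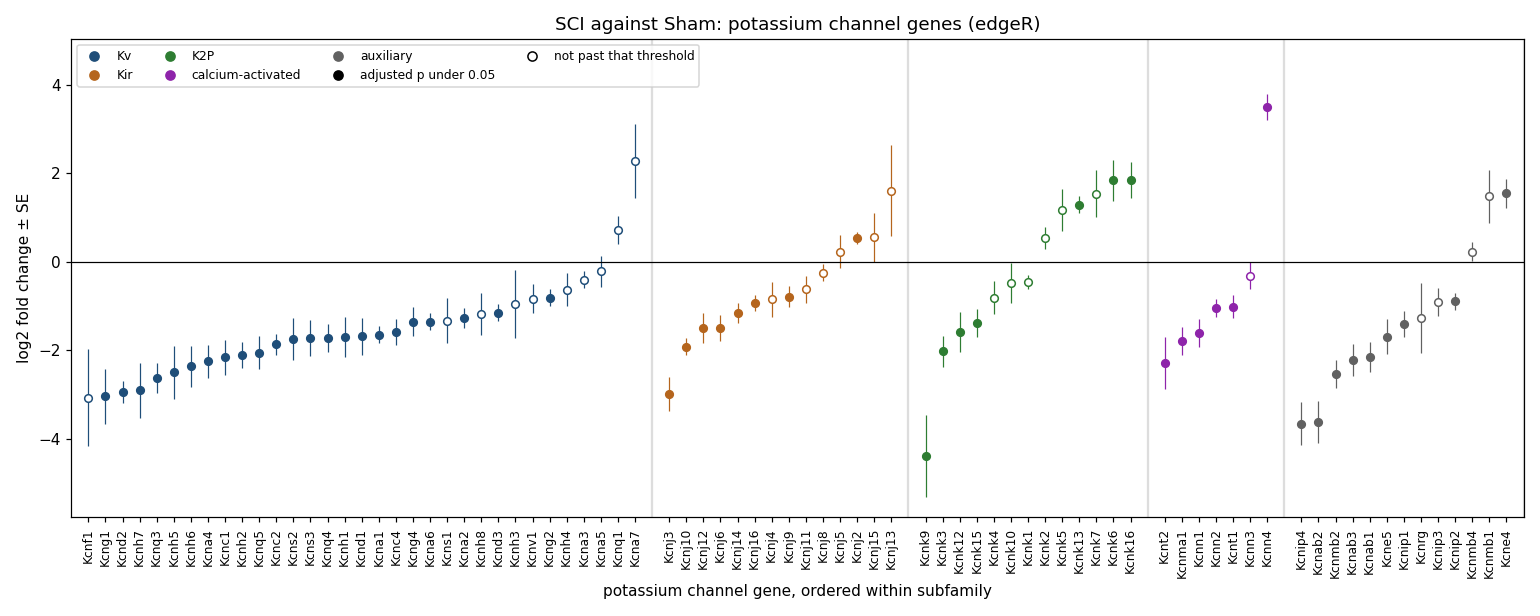
Log2 fold change ± SE of 80 of the tested potassium channel genes in SCI against Sham, ordered within subfamily, with filled points past an adjusted p of 0.05. Nearly all Kv points lie below 0, and the filled points above 0 are Kcnj2, Kcnk13, Kcnk6, Kcnk16, Kcnn4 and Kcne4.

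Of the Kv genes called, Kcng1 and Kcnd2 had the lowest log2 fold changes. Kcnd2, the Kv4.2 channel of the dendritic A-type current, lies at chr4:49776246-50277728 on the plus strand of mRatBN7.2. It stood at 27.4, 20.9 and 16.4 CPM (counts scaled to a common library size) in Sham libraries 1 to 3, at 2.57, 3.36 and 2.56 CPM in the SCI libraries and at 5.30, 9.49 and 10.5 CPM in the SCI + SCS libraries. The 3 groups did not overlap, with the SCI + SCS libraries between the other two groups. Against Sham, its log2 fold change in the SCI group was -2.95 ± 0.25 (SE, adjusted p = 0.0011), a 7.71-fold lower level.

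Kcna1 and Kcna2, the Kv1.1 and Kv1.2 channels of the juxtaparanode beside the nodes of Ranvier, were lower by less. Kcna1 (chr4:159464188-159472682, minus strand) stood at 367, 331 and 229 CPM in the Sham libraries, at 95.3, 102 and 103 in the SCI libraries and at 128, 126 and 155 in the SCI + SCS libraries. Its groups did not overlap, and the SCI libraries lay close together. The log2 fold change in SCI against Sham was -1.65 ± 0.19 for Kcna1 (adjusted p = 0.0017) and -1.27 ± 0.23 for Kcna2 (adjusted p = 0.0053). Kcna6, a further Kv1 subunit, fell by 1.36 ± 0.20 on the log2 scale (adjusted p = 0.0029). Kcna3, the Kv1.3 channel known from lymphocytes and microglia, had 14.6, 12.8 and 9.89 CPM in the Sham libraries and 10.2, 10.2 and 8.09 in the SCI libraries, and these overlapped. Its log2 fold change was -0.41 ± 0.19 (adjusted p = 0.12).

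Kcnc1 encodes the Kv3.1 channel of fast-spiking neurons. It had 114, 77.6 and 57.5 CPM in the Sham libraries and 27.9, 17.2 and 11.1 CPM in the SCI libraries, a log2 fold change of -2.17 ± 0.40 (adjusted p = 0.0059). The groups stood apart, with a wide spread inside each.

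Kcnq3, a subunit of the M-current that restrains repetitive firing, had 4.53, 5.22 and 6.13 CPM in the Sham libraries and 1.03, 1.06 and 0.492 CPM in the SCI libraries. The groups were apart, with a log2 fold change of -2.63 ± 0.35 (adjusted p = 0.0023). Kcng1, a silent subunit that modifies other Kv channels, changed by -3.04 ± 0.63 on the log2 scale (adjusted p = 0.0085). Its highest Sham library, 2, held 5.51 CPM, while the other Sham libraries held 1.47 and 1.44 and the SCI libraries 0.304 to 0.397 CPM. Kcnh7 and Kcnh5, of the ether-a-go-go family, had log2 fold changes of -2.91 ± 0.63 (adjusted p = 0.0099) and -2.51 ± 0.61 (adjusted p = 0.015) at levels of at most 0.689 CPM in any library. Kcnh5 lost its call without SCI library 1 or without SCI library 2 (adjusted p = 0.052 and 0.056).

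The glial inward rectifiers were lower. Kcnj10 (chr13:84802009-84835461, plus strand) was steady within the Sham group, at 529, 508 and 524 CPM. It stood at 181, 127 and 109 CPM in the SCI libraries and at 191, 271 and 260 CPM in the SCI + SCS libraries. Every SCI library was below every SCI + SCS library, and these below every Sham library. In SCI against Sham its log2 fold change was -1.92 ± 0.20 (adjusted p = 0.0014), a 3.79-fold lower level. Kcnj16, the Kir5.1 subunit that joins Kir4.1, had 97.8, 85.7 and 75.2 CPM in the Sham libraries and 50.6, 50.2 and 36.1 in the SCI libraries (log2 fold change -0.94 ± 0.18, adjusted p = 0.0062).

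Of the neuronal Kir genes, Kcnj3, the GIRK1 subunit opened by G proteins, had 21.0, 17.3 and 11.6 CPM in the Sham libraries and 2.26, 2.85 and 1.22 CPM in the SCI libraries. The groups did not overlap, and the log2 fold change was -3.00 ± 0.38 (adjusted p = 0.0021). Kcnj6, the GIRK2 subunit, fell by 1.50 ± 0.29 (adjusted p = 0.0072), Kcnj12 by 1.50 ± 0.33 (adjusted p = 0.011) and Kcnj14 by 1.15 ± 0.23 (adjusted p = 0.0071) on the log2 scale.

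Kcnj2 was the Kir gene that rose. It encodes Kir2.1, a strong rectifier of muscle, endothelium and activated microglia (chr10:96060821-96071445, plus strand). It stood at 16.0, 13.9 and 17.4 CPM in the Sham libraries, at 20.9, 23.4 and 25.1 in the SCI libraries and at 18.3, 15.0 and 14.2 in the SCI + SCS libraries. The SCI libraries lay above all others, and the Sham and SCI + SCS libraries overlapped. Its log2 fold change in SCI against Sham was 0.53 ± 0.13 (adjusted p = 0.014), and the call was lost without Sham library 2 (adjusted p = 0.058) and without SCI library 3 (adjusted p = 0.053), and also with limma on log2(FPKM + 1) (adjusted p = 0.053). The pore subunits of ATP-sensitive channels gave values whose groups overlapped. Kcnj8, known from pericytes, had a log2 fold change of -0.25 ± 0.18 (adjusted p = 0.30) and Kcnj11 of -0.62 ± 0.30 (adjusted p = 0.13).

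The K2P genes were called in both directions, 4 of the 13 tested lower (30.8%) and 3 higher (23.1%). Over all genes tested the shares were 25% and 24.3%, so the K2P shares lay near these. Kcnk13, the THIK-1 channel of microglia, lies at chr6:119242188-119345240 on the plus strand. It stood at 2.16, 2.70 and 2.76 CPM in the Sham libraries, at 6.72, 6.68 and 5.41 CPM in the SCI libraries and at 4.46, 7.32 and 5.41 CPM in the SCI + SCS libraries. The SCI and SCI + SCS libraries overlapped, and all 6 lay above the Sham libraries. The log2 fold change in SCI against Sham was 1.29 ± 0.19 (adjusted p = 0.0032).

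Kcnk6, the weakly conducting TWIK-2 channel, which macrophages are known to use, had 1.69, 4.22 and 6.92 CPM in the Sham libraries and 12.7, 17.0 and 16.8 CPM in the SCI libraries. The groups were apart, and Sham library 1 was the lowest of all. The log2 fold change was 1.84 ± 0.47 (adjusted p = 0.018), with adjusted p = 0.062 without Sham library 2, 0.054 without SCI library 2 and 0.055 without SCI library 3. Kcnk16 rose by 1.85 ± 0.40 on the log2 scale (adjusted p = 0.011) at levels of 0.376 to 0.644 CPM in the Sham libraries and 1.12 to 2.49 CPM in the SCI libraries.

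Kcnk9, the acid-sensitive TASK-3 leak channel of neurons (chr7:104437934-104473175, minus strand), had the lowest log2 fold change of all members. It held 2.40, 2.01 and 0.817 CPM in the Sham libraries and 0.101, 0.142 and 0 CPM in the SCI libraries, which are at most 10 reads each. That gave a log2 fold change of -4.40 ± 0.92 (adjusted p = 0.0091). Kcnk3, the related TASK-1 channel, was at -2.02 ± 0.35 (adjusted p = 0.0047), Kcnk12 at -1.59 ± 0.45 (adjusted p = 0.026) and Kcnk15 at -1.38 ± 0.32 (adjusted p = 0.013). Kcnk12 lost its call without Sham library 1 (adjusted p = 0.071), Sham library 2 (0.079), SCI library 2 (0.074) or SCI library 3 (0.064).

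The most abundant K2P gene, Kcnk1, the TWIK-1 channel, had 56.0, 51.9 and 37.6 CPM in the Sham libraries and 36.2, 34.3 and 36.5 in the SCI libraries. The SCI libraries were all lower, and the log2 fold change of -0.46 ± 0.16 missed the threshold (adjusted p = 0.052). Kcnk2, the mechanically and lipid-gated TREK-1 channel, had 14.9, 21.3 and 25.9 CPM in the Sham libraries and 23.1, 29.9 and 37.8 in the SCI libraries, which overlapped (log2 fold change 0.53 ± 0.25, adjusted p = 0.12).

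Kcnn4 had the highest log2 fold change of all members. It encodes KCa3.1, the intermediate-conductance calcium-activated channel of lymphocytes, macrophages and activated microglia (chr1:79959322-79974340, plus strand). It stood at 1.50, 2.57 and 2.36 CPM in the Sham libraries, at 22.2, 31.9 and 19.2 in the SCI libraries and at 11.8, 16.0 and 16.2 in the SCI + SCS libraries. The 3 groups did not overlap. The SCI level was 11.3-fold that of the Sham group, a log2 fold change of 3.49 ± 0.29 (adjusted p = 0.0011).

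Of the 7 calcium- and sodium-activated genes tested, 5 were lower. Kcnma1, the large-conductance BK channel, had 6.33, 5.89 and 3.51 CPM in the Sham libraries and 1.95, 1.36 and 1.26 CPM in the SCI libraries (log2 fold change -1.80 ± 0.32, adjusted p = 0.0050). Kcnn1 and Kcnn2, small-conductance channels of the afterhyperpolarization, were at -1.60 ± 0.32 (adjusted p = 0.0073) and -1.05 ± 0.21 (adjusted p = 0.0074) on the log2 scale. The sodium-activated Kcnt2 and Kcnt1 were at -2.29 ± 0.58 (adjusted p = 0.018) and -1.01 ± 0.25 (adjusted p = 0.017). Kcnt1 lost its call without SCI library 2 (adjusted p = 0.058) or without SCI library 3 (adjusted p = 0.060). Kcnn3, also a small-conductance channel, had no call (log2 fold change -0.32 ± 0.30, adjusted p = 0.42).

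Of the auxiliary subunits, Kcnip4, a calcium-binding partner of Kv4 channels, and Kcnab2, the Kv beta-2 subunit that carries Kv1 channels to axons, fell furthest. Kcnip4 (chr14:61381076-62530144, plus strand) had 10.7, 10.7 and 5.15 CPM in the Sham libraries and 0.368, 1.02 and 0.738 CPM in the SCI libraries. Kcnab2 (chr5:162901896-162988243, minus strand) had 44.0, 59.0 and 22.9 CPM in the Sham libraries, 2.79, 5.28 and 2.24 in the SCI libraries and 4.83, 10.5 and 10.9 in the SCI + SCS libraries. For both genes the Sham libraries lay above all others. The log2 fold change in SCI against Sham was -3.66 ± 0.48 for Kcnip4 and -3.63 ± 0.48 for Kcnab2 (adjusted p = 0.0023 for each). The Kcnab2 level was thus 12.4-fold lower, while its partners Kcna1 and Kcna2 were 3.13-fold and 2.41-fold lower, and the difference between these genes was not tested.

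Kcnmb2, a BK channel subunit that confers inactivation, was at -2.54 ± 0.32 (adjusted p = 0.0020), and the Kv beta subunits Kcnab3 and Kcnab1 at -2.23 ± 0.36 (adjusted p = 0.0040) and -2.15 ± 0.34 (adjusted p = 0.0035) on the log2 scale. Kcnmb4, the neuronal BK subunit, gave overlapping groups of 7.34, 4.64 and 5.23 CPM in the Sham libraries and 6.87, 6.23 and 7.32 CPM in the SCI libraries (log2 fold change 0.23 ± 0.22, adjusted p = 0.41). Kcne4, a small subunit that inhibits several Kv channels, was the auxiliary gene that rose. It stood at 4.18, 5.52 and 7.60 CPM in the Sham libraries, at 10.5, 19.3 and 21.4 in the SCI libraries and at 13.4, 8.07 and 7.35 in the SCI + SCS libraries. The Sham and SCI libraries were apart, with a log2 fold change of 1.55 ± 0.33 (adjusted p = 0.0094).

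**Figure D3:**
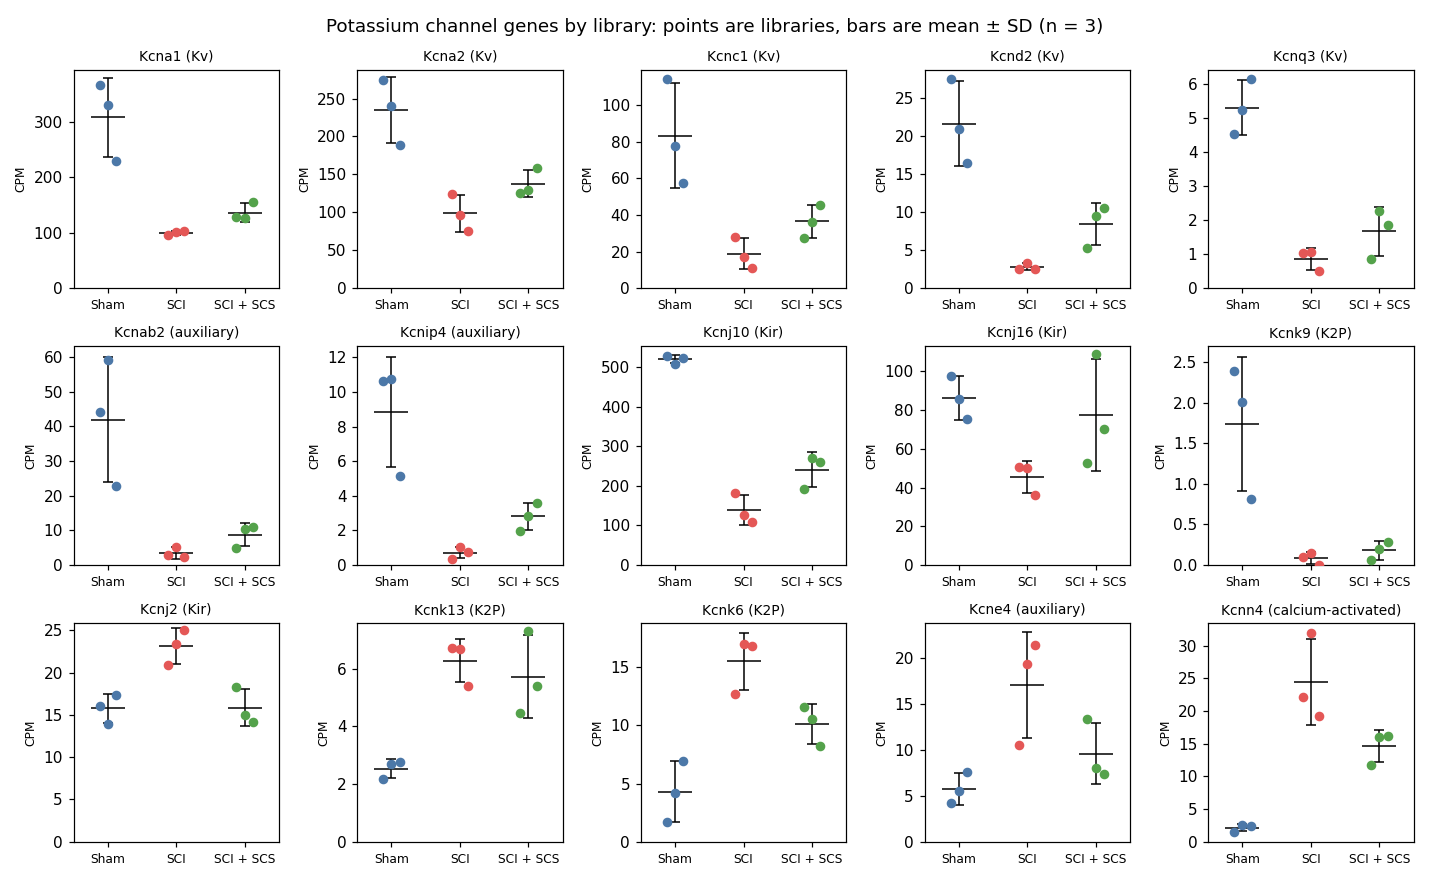
CPM of 15 potassium channel genes in each library, on linear axes from 0, with the mean ± SD of each group (n = 3). The SCI libraries are the lowest group for Kcnd2, Kcnj10 and Kcna1 and the highest for Kcnn4 and Kcnj2.

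The cell types in the tissue differed between groups as well, and in whole tissue fewer cells of a type and less RNA per cell cannot be told apart. All 15 neuron markers were lower in SCI against Sham (log2 fold change -3.51 to -1.38), and their CPM summed to 5177 to 11427 in the Sham libraries, 786 to 2635 in the SCI libraries and 2396 to 4007 in the SCI + SCS libraries. Of the 82 members tested, 34 had a log2 fold change within the range of these neuron markers, 3 were below it and 45 above it. The share of all genes within this range was not counted, so these numbers are a description only. Of the 8 oligodendrocyte markers, 7 were lower, and their sums were 59012 to 83454, 17792 to 33256 and 30873 to 36614 CPM in the 3 groups. Of the 8 astrocyte markers, 2 were lower and 1 was higher, and their sums overlapped between the Sham libraries (6941 to 11781 CPM) and the SCI libraries (8450 to 12732 CPM). Of the 7 macrophage markers, 6 were higher, with sums of 397 to 593 CPM in the Sham libraries, 3484 to 4933 in the SCI libraries and 2595 to 2992 with SCS, the same order of groups as for Kcnn4. Of the 6 microglia markers, 2 were higher. Of 6 lymphocyte markers tested, 5 were higher. The lymphocyte sums were 1.11 to 1.96 CPM in the Sham, 20.9 to 22.8 in the SCI and 8.08 to 14.3 in the SCI + SCS libraries. The adipocyte sums were 3.24 to 9.56, 88.4 to 116 and 27.2 to 43.7 CPM. Both lists thus had the same order of groups as the macrophage list and Kcnn4. No neuron, astrocyte, oligodendrocyte or macrophage marker was at 0 in any library. The part of these markers in the changes of the channel genes was not tested.

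Some libraries differed in markers of skeletal muscle or of leptomeninges and fibroblasts, and the values of some members differed between the same libraries. Kcna7, Kcnj13, Kcnk5 and Kcnmb1 are named here after their values were seen. The 6 skeletal muscle markers found in the table summed to 3155 CPM in SCI library 1 and 791 CPM in SCI library 3, against 6.52 to 44.6 CPM in the other 7 libraries. Kcna7, a Kv1 channel of muscle, held 2.22 and 1.48 CPM in those 2 libraries, 0.213 CPM in SCI library 2 and 0.173 to 0.423 CPM in the Sham libraries, and had no call (log2 fold change 2.28 ± 0.84, adjusted p = 0.061). The 9 markers of leptomeninges and fibroblasts, a list written after the values were seen, summed to 432 CPM in Sham library 1, 1395 in Sham library 2 and 2696 in Sham library 3, to 4555 to 6359 CPM in the SCI libraries and to 2540 to 3996 CPM in the SCI + SCS libraries. Kcnj13, the Kir7.1 channel of ion-transporting epithelia, had 0.188, 4.74 and 8.19 CPM in Sham libraries 1 to 3, and Kcnk5, a TASK-2 channel, 2.46, 5.65 and 8.19 CPM, in the same order as that list. In all, 12 of the 82 members tested had this order in the Sham libraries. The share of all genes with this order was not counted, so the number is a description only. Of the 12, 4 were among the 6 higher members, Kcnk6, Kcne4, Kcnk13 and Kcnk16, while 1 was lower and 7 had no call. Those without a call included Kcnk2 and Kcnmb1, a BK channel subunit of smooth muscle (0.172, 0.579 and 0.587 CPM). Without Sham library 1, the log2 fold change in SCI against Sham was 1.46 for Kcnk6 and 1.35 for Kcne4, and 6 members were higher in all. The part of muscle, leptomeninges or fibroblasts in these values was not tested. Whether these markers came from inside or around the cord cannot be told from whole tissue.

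**Figure D4:**
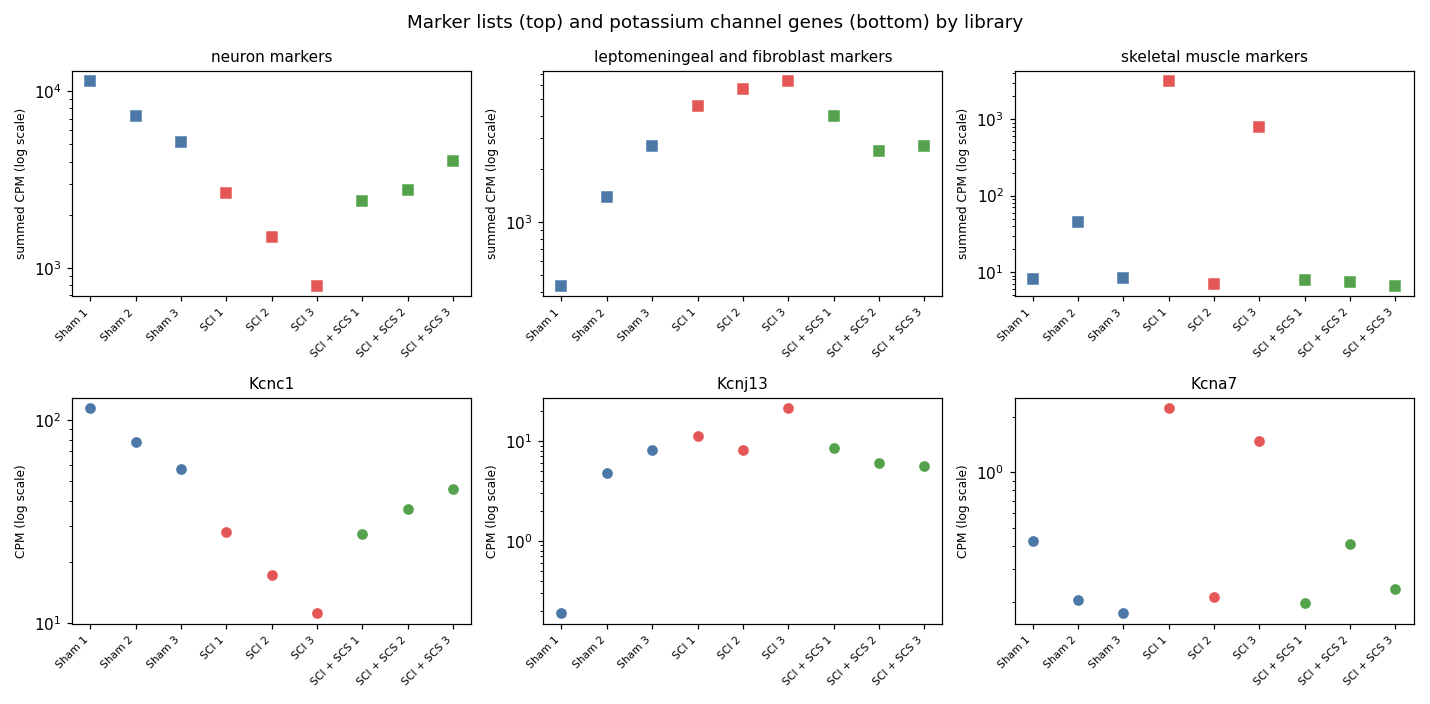
Summed CPM of 3 marker lists (top) and CPM of 1 potassium channel gene each (bottom) in the 9 libraries, on log axes. Kcnc1 puts the 9 libraries in the same order as the neuron list does, whereas Kcna1 and Kcnd2 (not drawn here) do not. How many members follow that order was not counted, so the pair is an example only. Kcnj13 is lowest in Sham library 1 as the leptomeningeal list is, and Kcna7 is highest in SCI libraries 1 and 3, which hold the muscle markers.

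Genes whose products work with potassium channels were mostly lower as well. The list held 31 genes, of which 30 were in the table and tested, and 20 of these were lower and 1 higher in SCI against Sham, with a median log2 fold change of -1.62, where 25% of all genes tested were lower and 24.3% higher. The lowest were Dpp6 (log2 fold change -3.02 ± 0.42, adjusted p = 0.0026), an auxiliary protein of Kv4 channels, Lgi2 (-2.93 ± 0.40, adjusted p = 0.0024), a secreted synaptic protein, and Adam23 (-2.92 ± 0.31, adjusted p = 0.0014), a receptor of that family. The gene that rose was Lrrc38, a BK channel subunit (log2 fold change 1.94 ± 0.36, adjusted p = 0.0061). In SCI + SCS against SCI, 0 of the 29 tested had a call at the adjusted threshold by edgeR, and 17 were higher and 0 lower at an unadjusted p under 0.05, against 13.3% and 10.9% of all genes tested.

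The second comparison asked what stimulation changed in injured cords. No member had a call: 0 were higher and 0 lower among 81 tested at an adjusted p under 0.05 by edgeR, where 0.00566% and 0% of all 17663 genes were called. The direction of the values was mostly upward. At an unadjusted p under 0.05, 35 members were higher and 7 lower, against 13.3% and 10.9% of all genes tested. The SCI + SCS libraries all lay above the SCI libraries for 30 members and all below for 3, against 15.6% and 13.9% of all genes. The median log2 fold change was 0.52 over the members and -0.01 over all genes, and it was 0.69 for Kv, 0.42 for Kir, 0.14 for K2P, 0.42 for calcium-activated and 0.76 for auxiliary genes. DESeq2 called 28 members higher and 5 lower at an adjusted p under 0.05, where it called 8.28% and 6.41% of all genes. Without SCI + SCS library 1, edgeR called 2 members higher, Kcnd2 and Kcnd3 (adjusted p = 0.0499 for each), and 105 of all 17976 genes tested. Without SCI + SCS library 3, the count at an unadjusted p fell from 35 to 21 higher and from 7 to 3 lower, and the 7 lower became 3 without SCI library 3 and 4 without SCI + SCS library 2. Over all 17954 genes tested without SCI + SCS library 3, 1405 were higher and 1140 lower at an unadjusted p.

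**Figure D5:**
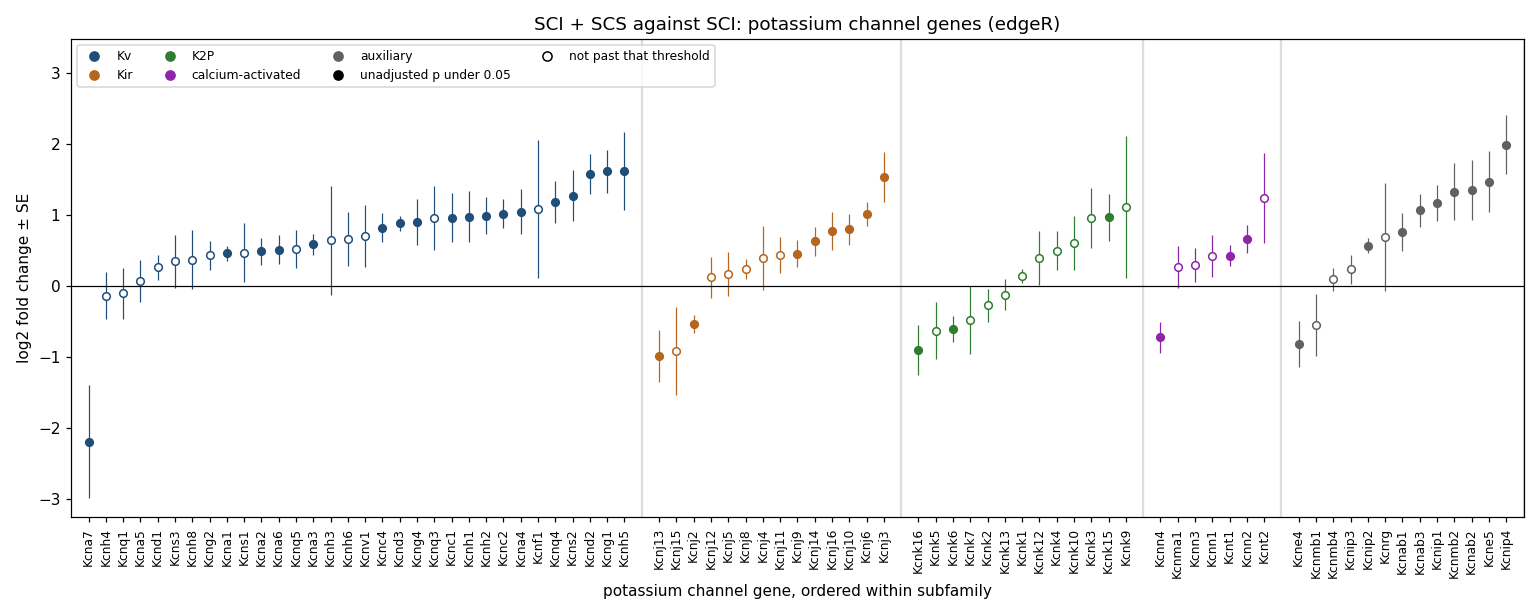
Log2 fold change ± SE of 79 of the tested potassium channel genes in SCI + SCS against SCI, ordered within subfamily, with filled points past an unadjusted p of 0.05. No point passed an adjusted p of 0.05 by edgeR, and most points lie above 0, with Kcnj2, Kcnk6, Kcnn4 and Kcne4 among those below.

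The 10 members with the smallest p were all higher in the SCI + SCS group, and each of them had fallen in SCI against Sham. The 2 comparisons share the SCI libraries, so their values are set side by side only. Kcnd3, the Kv4.3 channel of the A-type current (chr2:192937950-193155345, plus strand), had 15.4, 15.6 and 13.5 CPM in the SCI libraries, 25.3, 26.6 and 29.9 CPM in the SCI + SCS libraries and 34.1, 39.1 and 24.4 CPM in the Sham libraries. The injured groups were apart, and the SCI + SCS libraries overlapped with the Sham libraries. Its log2 fold change against SCI was 0.89 ± 0.11 (adjusted p = 0.072, and 2.79e-08 with DESeq2). Kcnj6 had 10.1, 8.46 and 6.93 CPM in the SCI libraries and 14.8, 17.7 and 18.6 CPM in the SCI + SCS libraries (log2 fold change 1.01 ± 0.17, adjusted p = 0.072).

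Kcnd2 was at 1.58 ± 0.28 on the log2 scale (adjusted p = 0.075). The calcium-binding Kv4 subunits Kcnip2 and Kcnip1 were at 0.57 ± 0.11 (adjusted p = 0.077) and 1.17 ± 0.26 (adjusted p = 0.085). Kcnip4, of the same family, stood 3.99-fold above its SCI level (adjusted p = 0.083), with 1.99, 2.85 and 3.58 CPM in the SCI + SCS libraries. Outside these 10 genes, the Kv4.1 channel Kcnd1 was at 0.26 ± 0.18 (adjusted p = 0.41) and Kcnip3 at 0.23 ± 0.20 (adjusted p = 0.51). Kcnip1 stood at 16.9, 12.4 and 8.70 CPM in the SCI libraries, at 25.7, 24.2 and 35.0 CPM in the SCI + SCS libraries and at 42.4, 31.4 and 25.2 CPM in the Sham libraries, so that the SCI + SCS and Sham libraries overlapped. Of the remaining genes, Kcng1 was at 1.62 ± 0.30 (adjusted p = 0.077), Kcnc2, the Kv3.2 channel of interneurons, at 1.02 ± 0.20 (adjusted p = 0.078), Kcnab3 at 1.07 ± 0.24 (adjusted p = 0.085) and Kcnj3 at 1.53 ± 0.35 (adjusted p = 0.088).

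The members that had risen after injury had lower values in the SCI + SCS group, none past the adjusted threshold by edgeR. Against SCI, the log2 fold change was -0.54 ± 0.13 for Kcnj2 (adjusted p = 0.092), -0.73 ± 0.22 for Kcnn4 (adjusted p = 0.12) and -0.60 ± 0.18 for Kcnk6 (adjusted p = 0.12), and for these 3 genes the injured groups did not overlap. DESeq2 called Kcnj2, Kcnn4 and Kcnk6 lower (adjusted p = 0.00641, 0.0195 and 0.0212). For Kcnk16 and Kcne4 it was -0.90 ± 0.36 and -0.82 ± 0.33 (adjusted p = 0.19 for each), with overlapping libraries. Kcnk13 had -0.12 ± 0.22 (adjusted p = 0.77). Beside these values, 6 of 7 macrophage markers, 5 of 7 lymphocyte markers and 7 of 9 leptomeningeal and fibroblast markers were lower, and 7 of 15 neuron markers, 5 of 8 astrocyte markers and 4 of 8 oligodendrocyte markers were higher, at an unadjusted p under 0.05, and their part was not tested. Kcnj10 was at 0.80 ± 0.22 (adjusted p = 0.10) and Kcna1 at 0.46 ± 0.11 (adjusted p = 0.088), and the SCI + SCS libraries of both lay above the SCI libraries.

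The third comparison, of SCI + SCS against Sham, shows what still differed from the uninjured cord. Of 82 members tested, 24 were lower and 2 higher at an adjusted p under 0.05 by edgeR, where 16.2% of all genes were lower and 16.2% higher. The lower members were 13 Kv, 3 Kir, 2 K2P, 2 calcium-activated and 4 auxiliary genes, and the median log2 fold change over all members was -0.51. This count depended on single libraries: it was 5 without Sham library 2, 10 without SCI + SCS library 1 and 9 without SCI + SCS library 2. Over all genes tested, 2849 of 17640 were lower with every library included. In the same fits with a library left out, 970 of 17927, 946 of 17917 and 1281 of 17939 were lower, so the share over all genes fell as well. Kcnj10 and Kcna6 were at -1.11 ± 0.14 and -0.83 ± 0.11 (adjusted p = 0.0052 for each), and Kcna1 was at -1.17 ± 0.19 (adjusted p = 0.0090). Kcnab2 was at -2.26 ± 0.44 (adjusted p = 0.014) and Kcnk9 at -3.28 ± 0.66 (adjusted p = 0.015), the latter at 0.0561, 0.199 and 0.282 CPM in the SCI + SCS libraries. Kcnk9 lost its call without Sham library 2 (adjusted p = 0.054) or without SCI + SCS library 2 (adjusted p = 0.055). Kcnn4 was at 2.78 ± 0.25 (adjusted p = 0.0031). Kcnk13 was at 1.18 ± 0.23 (adjusted p = 0.014), and without Sham library 2 its adjusted p was 0.051, which leaves 1 higher member.

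A further 8 members did not pass the filter on low counts in any comparison. Kcne1, an auxiliary subunit of heart and inner ear channels, had 0 counts in all 9 libraries, where a count of 0 allows up to 0.0341 to 0.0470 CPM (3 counts, counting error only). Kcnu1, a sperm channel, had 3 counts in SCI + SCS library 3 and 0 elsewhere. Kcnk18, the TRESK channel of sensory neurons, had 4, 43 and 4 counts in the Sham libraries and 0 in the SCI libraries. Kcna10, Kcng3, Kcnj1, Kcnmb3 and Kcnv2 had at most 20 counts in any library. Kcnh7 was tested in the comparisons with the Sham group and not in SCI + SCS against SCI.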

How the data were processed

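RNA from T9-T11 segments was enriched for poly(A) mRNA and sequenced in 9 libraries of 1 labelled batch. The authors deposited raw counts per gene and FPKM values. Per the submitters' processing notes, fastp 0.23.2, HISAT2 2.2.1 and the rat build mRatBN7.2 were used. The counting program, annotation release and strand setting are not given in the sources used here, so reads of antisense partners cannot be told apart. The counts were tested with edgeR 4.0.16 (R 4.3.3, TMM scaling, filterByExpr, quasi-likelihood test, 6 libraries per comparison, no covariate), with Benjamini-Hochberg adjustment over all genes tested, and CPM used TMM factors of all 9 libraries. SE is the log2 fold change divided by the square root of F. DESeq2 1.42.0 and limma 3.58.1 on log2(FPKM + 1) or log2(FPKM + 0.1) were alternatives, the latter with a mean FPKM of at least 0.1. The filter, the scaling, a joint fit of all 9 libraries, a replicate block and the libraries included were varied too. The scripts were tested on simulated data. Gene positions are those of the deposited table, and promoter windows are RefSeq's on GRCr8, with no conversion between builds.

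The members and gene lists were chosen with earlier results of these data known. Named members were, per subfamily, the 5 higher and 5 lower with the largest called change and non-overlapping libraries in SCI against Sham, the 10 with the smallest p in SCI + SCS against SCI, the 5 highest FPKM per group, the untested ones, and a list of 22 genes, of which 21 were analysed here; 2 members that the rule names are counted but not reported here by name; of the partner list, up to 3 called genes in each direction were named. Other lists gave these counts in SCI against Sham: 3 of 4 adipocyte, 3 of 7 endothelial and mural, 1 of 3 Schwann cell, 1 of 3 oligodendrocyte precursor and 4 of 6 skeletal muscle markers were higher, and 2 of 7 endothelial and mural and 1 of 3 oligodendrocyte precursor markers were lower.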

Additional observations from a re-analysis of the deposited data

How the results depend on the processing

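In SCI against Sham, DESeq2 called 10 potassium channel genes higher in place of 6, where it called 4903 of all 20548 genes tested higher. Of the 48 lower calls, 38 were kept in every alternative in which they were tested, and 10 were lost only when a library was left out. Of the 6 higher calls, 4 were kept in all alternatives, while Kcnk6 and Kcnj2 were not. In SCI + SCS against SCI, DESeq2 called 28 higher and 5 lower in place of 0 and 0, and with libraries left out in turn edgeR called 0 to 2 higher. Over all genes, DESeq2 called 1437 of 17356 higher and 1113 lower, and edgeR called 0 to 105 higher with libraries left out. At an unadjusted p, the higher members numbered 21 to 40 and the lower members 3 to 7 with libraries left out, and limma on FPKM with either pseudocount gave 4 lower in place of 7. Over all genes, 1405 to 2582 were higher and 1116 to 2300 lower with libraries left out. With limma, 1326 and 1334 were lower in place of 1926. In SCI + SCS against Sham, DESeq2 called 4 higher in place of 2, and with libraries left out 1 to 3 were higher and 5 to 36 lower in place of 24. Over all genes, DESeq2 called 3565 of 19147 higher. With libraries left out, 1179 to 3302 of all genes were higher and 946 to 3335 lower.

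The replicate numbers were not used to pair the libraries in the main tests. Same-numbered deviations from the group means correlated at 0.24, -0.06 and 0.20 in SCI against Sham. The values were -0.17, 0.0020 and -0.20 in SCI + SCS against SCI and -0.33, 0.022 and -0.31 in SCI + SCS against Sham. Differently numbered libraries were not correlated for reference, so these values cannot decide whether the numbers pair the libraries. With a replicate block, 9 members were higher and 51 lower in the first comparison, 0 and 0 in the second (3 lower at an unadjusted p in place of 7) and 2 higher and 2 lower in place of 24 in the third. Over all genes, 4290 of 17822 were higher and 4411 lower in the first comparison with this block. In the second, 0 of 17663 were higher and 0 lower, with 1345 lower at an unadjusted p. In the third, 713 of 17640 were higher and 546 lower.

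For the named members, 717 alternative values in SCI against Sham kept their direction and their side of the threshold, 12 newly passed it and 15 no longer did. The same counts were 593, 26 and 0 in SCI + SCS against SCI and 343, 4 and 67 in SCI + SCS against Sham. The log2 fold changes turned sign in 2 of the results counted, both near 0. Kcnk13 in SCI + SCS against SCI was 0.0317 without SCI + SCS replicate 1, with a range of -0.34 to 0.0317 over libraries left out. Kcnip1 in SCI + SCS against Sham was 0.0051 without Sham replicate 1, with a range of -0.40 to 0.0051. Named members outside these counts turned sign as well. In SCI + SCS against Sham they included Kcnj2 (-0.11 to 0.082 over libraries left out), Kcnj8 (-0.11 to 0.18) and Kcnj16 (-0.49 to 0.062). The cause of these changes was not tested. Genes under about 1 CPM, such as Kcnk9 and Kcnh5, rest on few reads.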
